A study of Mus musculus with 8 samples.

Results

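Loss of the TGF-beta receptor gene Tgfbr2 in smooth muscle was examined in mice fed a high fat diet (HFD) for 4 months, by comparing 2 single-cell RNA libraries of the ascending aorta. The cells are 1577 cells of the library labelled as the smooth muscle Tgfbr2 knockout (KO 4M) and 1235 cells of the library labelled Apoe (Apoe 4M), 2812 of the 13056 cells of the study. They were taken by the genotype tag in the cell names of the table that holds both 4M libraries. Both groups lack Apoe, a gene of lipoprotein clearance, so the controls are Apoe-/- mice and the knockout, whose genotype label reads TGFBetaRiSMC-Apoe, carries the Tgfbr2 loss on top of it. The study has 6 further libraries, KO and Apoe each on the diet labelled ND and on HFD for 1 or 2 months (1M and 2M). Cells were digested from the aorta, sorted as GFP-positive smooth muscle cells and run on the 10x Genomics Chromium system. The Cre driver, the age of the mice and the number of animals behind a library are not given in the sources used here. Each genotype and diet has 1 library, so a difference between the 4M libraries has no replicate error, and genotype cannot be told apart from any other difference between these 2 preparations.

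TGF-beta ligands bind the receptor encoded by Tgfbr2, which recruits and activates Tgfbr1, and SMAD proteins then carry the signal to the nucleus. In the aortic wall this pathway is known to promote contractile proteins and elastic fibre components in smooth muscle cells, and its loss in smooth muscle is linked to aneurysm in mice. Vascular smooth muscle cells can lose contractile proteins and take on genes of fibroblasts, cartilage or bone in diseased arteries.

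The 4M libraries held 18301826 unique molecular identifiers (UMIs) in KO 4M and 9407155 in Apoe 4M, with medians of 10988 and 6966 UMIs per cell. Levels are UMIs per 1000000 UMIs of the library (CPM), counted per transcript end and not per length, so they compare libraries and not genes. At the median depth 1 UMI in a cell corresponds to 91.0 CPM in KO 4M and 144 CPM in Apoe 4M. A gene seen in under 5% of the cells of a library is listed at 0 in the files, and no fold is given against such a listing. The 10 most abundant genes took 15.2% of the UMIs in KO 4M and 11.1% in Apoe 4M, and mitochondrial transcripts took 1.42% and 2.74%. The genotype labels could not be checked from the deleted gene, because the values of Tgfbr2 used here come from a table of Apoe cells, at 54.6 CPM in Apoe 4M and from 39.2 to 43.6 CPM on the other diets. Of the other cell types, the endothelial list has 3 markers in the tables and the macrophage list 6. In Apoe 4M 13 cells carried UMIs of all 3 endothelial markers, and in the 6 further libraries 5 to 33 cells carried 3 or more markers of 1 of these lists, whereas in KO 4M too few of the markers are listed above 0 for any cell to be counted, so such cells could not be sought there. Pecam1, Esam and Flt1, the 3 endothelial markers in the tables, were listed at 0 in KO 4M and reached 69.3, 15.5 and 33.7 CPM in Apoe 4M, and of 6 macrophage markers in the tables KO 4M had Cd68 at 6.17 CPM and Lyz2 at 21.5 CPM and Apoe 4M none. Lymphocyte and erythroid cells could not be looked for with the markers chosen. The smooth muscle label holds for Apoe 4M by its markers, whereas all 7 smooth muscle markers were low in KO 4M, as described next.

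The 4M libraries shared 8624 genes. Of these, 604 (7.00%) were at least 2-fold higher and 1568 (18.2%) at least 2-fold lower in KO 4M. Together they make 25.2% of the genes, against 2.43% on ND, 1.77% on 1M and 3.81% on 2M, where KO was likewise set against Apoe. The median log2 ratio of all shared genes was -0.25, and scaling the libraries by a trimmed mean in place of the UMI total raises every log2 ratio by 0.24. Under that scaling 926 genes were higher and 1164 lower, under a median-of-ratios factor 944 and 1147, and with the authors' own cell scaling 1266 and 845. Small ratios are therefore read against the median of -0.25 and not against 0. A further 1261 genes were listed in KO 4M alone and 857 in Apoe 4M alone, of 11446 in the tables. Counts of list members given below are to be read beside these shares of all genes, 7.00% higher and 18.2% lower at 2-fold.

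A test was possible for one question, whether the KO-minus-Apoe difference at 4M departed from the mean of that difference on ND, 1M and 2M. It was run with limma on the log2 CPM of 7994 genes listed in all 8 libraries, with 2 residual degrees of freedom. The error starts from the spread of the genotype difference over the other 3 diets. For each gene limma draws this variance toward a value shared by all genes tested (empirical Bayes), which adds degrees of freedom. The SE and p of a gene therefore do not rest on its own 3 diets alone. The effect given below as a departure is that difference of differences on the log2 scale, with its standard error (SE) and a Benjamini-Hochberg adjusted p. At 4M the departure was above 0 for 1144 genes (14.3%) and below 0 for 2561 (32.0%) at an adjusted p under 0.05. Trimmed-mean scaling gave 1699 and 1955 genes, and means of the deposited log2 values 1733 and 767. With 1 library a side at 4M, the test measures how far this pair of libraries stands from the other pairs, not the spread between animals.

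Genes of the contractile apparatus were far lower in KO 4M than in Apoe 4M. Of 19 contractile genes, all 18 listed in both libraries were below 0 on the log2 ratio, 17 of them at least 2-fold, with a median of -3.54 beside -0.25 over all genes, and Des (desmin, an intermediate filament) was listed in Apoe 4M alone at 85.8 CPM. Summed over the list, KO 4M had 4080 CPM and Apoe 4M 38185 CPM. The departure was below 0 for all 18 genes tested (17 under trimmed-mean scaling, where Vcl was not called), beside 32.0% of all genes, and on ND, 1M and 2M the median log2 ratio of the list was 0.31, 0.17 and 0.17.

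Acta2, the smooth muscle alpha actin, had 24612, 23420.2, 21484 and 802 CPM in KO cells on ND, 1M, 2M and 4M, against 18216, 20762, 19228 and 11932 CPM in Apoe cells. KO 4M stood below all 7 other libraries, whereas on the 3 shorter diets KO was above Apoe. The ratio at 4M was 14.9-fold lower (log2 -3.89, 95% interval -3.92 to -3.87 for counting error only), and the departure was -4.15 ± 0.21 (adjusted p = 2.62e-05). Myh11, the smooth muscle myosin heavy chain, showed a similar gap at 4M, with 2606, 2337, 1744 and 74.4 CPM in KO cells and 2244, 2035, 1759 and 1639 CPM in Apoe cells (22.0-fold lower at 4M). Tagln (transgelin, an actin-binding protein) had 1142, 1039, 433 and 19.6 CPM in KO cells and 747, 983, 330.1 and 835 CPM in Apoe cells, which made it 42.6-fold lower at 4M with a departure of -5.77 ± 0.24 (adjusted p = 2.62e-05). Myl9 and Mylk, a regulatory light chain of myosin and the kinase that phosphorylates it, were 17.3-fold and 17.8-fold lower. Synpo2, an actin-bundling protein, was 24.1-fold lower and Lmod1, an actin nucleator, 16.8-fold. The smallest gaps were those of Tpm1 (tropomyosin 1), 2.80-fold lower, Myl6, 3.91-fold lower, and Vcl (vinculin), at 31.6 CPM in KO 4M and 43.6 CPM in Apoe 4M (log2 -0.46). Most of the pericyte markers listed in both libraries moved with this list. Pdgfrb had 21.7 CPM in KO 4M and 134 CPM in Apoe 4M, Abcc9 13.7 and 147 CPM, and Kcnj8 10.9 and 40.1 CPM. In all, 4 of the 5 pericyte markers listed in both libraries were at least 2-fold lower, and their part in the result was not tested.

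**Figure D1:**
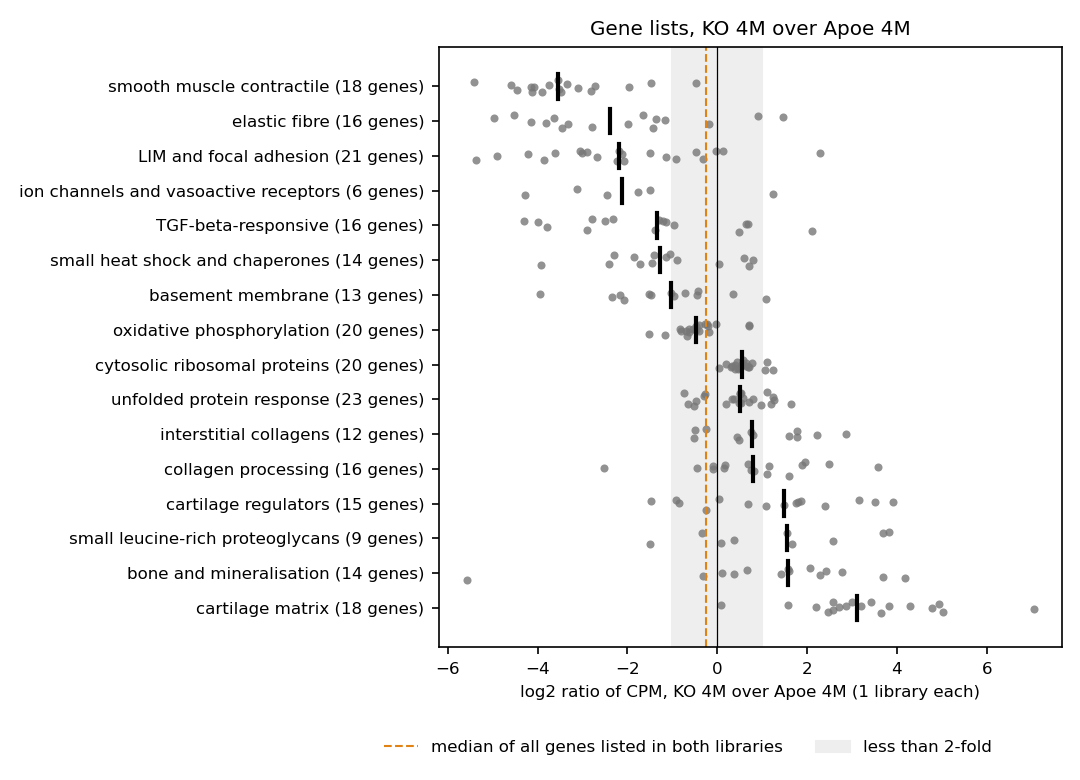
Log2 ratio of CPM of KO 4M over Apoe 4M (x axis) for the listed members of 16 gene lists, 1 point a gene, with the list median as a black bar, the median of all shared genes (-0.25) as a dashed line and changes of less than 2-fold shaded. The contractile list lies lowest of those drawn with a median of -3.54 and the cartilage matrix list highest with a median of 3.10.

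The proximal promoters of these genes are known to be bound by serum response factor at the CArG box, a motif of a CC pair, an A/T-rich core and a GG pair, with myocardin as cofactor. The 250 bases before the start of 3 genes of the list are printed, to set genes that fell together beside their promoter letters. Sequences are RefSeq, build GRCm38.p6, 5' to 3' on the strand of the gene, and capitals mark a CArG box or a match with 1 G or C in its core.
Acta2 (chr19:34255374-34255623, minus strand): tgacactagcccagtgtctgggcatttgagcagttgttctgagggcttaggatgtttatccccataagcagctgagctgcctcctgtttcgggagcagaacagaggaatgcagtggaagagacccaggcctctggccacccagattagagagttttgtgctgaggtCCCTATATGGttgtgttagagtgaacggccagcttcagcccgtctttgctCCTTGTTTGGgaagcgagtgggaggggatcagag
Myl9 (chr2:156775214-156775463, plus strand): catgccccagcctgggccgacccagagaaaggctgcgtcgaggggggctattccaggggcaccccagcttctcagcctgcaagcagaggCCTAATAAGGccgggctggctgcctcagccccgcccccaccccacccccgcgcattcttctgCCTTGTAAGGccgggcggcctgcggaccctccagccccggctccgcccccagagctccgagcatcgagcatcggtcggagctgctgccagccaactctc
Cnn1 (chr9:22099003-22099252, plus strand): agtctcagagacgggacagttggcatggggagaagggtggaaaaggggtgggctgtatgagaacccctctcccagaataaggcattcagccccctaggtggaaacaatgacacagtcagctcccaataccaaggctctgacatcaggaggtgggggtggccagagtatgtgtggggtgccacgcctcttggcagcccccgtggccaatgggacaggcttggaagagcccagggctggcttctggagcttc
Acta2 holds 2 matches with 1 base off, which begin 84 and 34 bases before the start, Myl9 holds a full CArG box 161 bases and a match with 1 base off 99 bases before the start, and Cnn1 (calponin, which binds actin) holds none in this window. Searched in the same windows on both strands, a full CArG box was found in 3 of the 16 contractile genes with a promoter entry (18.8%), in 8 of 99 genes with a log2 ratio of -3 or lower (8.08%), in 24 of 1143 genes at least 2-fold lower (2.10%), in 10 of 462 at least 2-fold higher (2.16%) and in 99 of 6626 genes listed in both libraries (1.49%). Over all 27025 promoter entries the share was 1.62%. With matches of 1 base off counted as well, the share was 31.25% of the contractile genes (5 of 16) and 18.2% of genes with a log2 ratio of -3 or lower. It was 10.9% of genes at least 2-fold lower, 8.87% of those at least 2-fold higher and 9.30% of genes listed in both libraries. These matches describe letters and not sites.

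Within single cells the gap was seen in most cells of each library. A library sum cannot tell fewer cells carrying a transcript from less of it in each, so the levels of cells are given as well. The summed contractile list had a median of 1993 CPM per cell in KO 4M, with 1129 and 4880 CPM at the 10th and 90th percentile, and a median of 44357 CPM in Apoe 4M, with 4797 and 66538 CPM. A small set of KO 4M cells kept a high sum, since 57 of 1577 cells (3.61%, 95% interval 2.75 to 4.66) lay at or above the median of Apoe 4M cells. Acta2 had a cell median of 96.1 CPM in KO 4M and 13039 CPM in Apoe 4M, and the 16 KO 4M cells with most Acta2 held 28.2% of its UMIs, against 3.42% in the 13 such cells of Apoe 4M. The cell median of Myh11 was 0 CPM in KO 4M and 1717 CPM in Apoe 4M. Intervals on cells are exact binomial (Clopper-Pearson) and cover counting error only. No cell type that lacks these genes was sorted, so the share of free RNA in these values was not tested.

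Of the known regulators of contractile genes, the 9 listed in both libraries moved less than the contractile list (median log2 -0.67, beside -3.54). For the 2 listed in Apoe 4M alone no fold is given. Srf, the serum response factor, had 59.2, 51.0, 41.7 and 32.2 CPM in KO cells on ND, 1M, 2M and 4M, against 50.2, 52.2, 43.6 and 51.1 CPM in Apoe cells. KO 4M was the lowest of the 8, 1.59-fold below Apoe 4M, with a departure of -0.71 ± 0.21 (adjusted p = 0.0266) that lost its call under trimmed-mean scaling (-0.51), without both ND libraries (-0.62) and in 2 other settings. Myocd (myocardin) had 47.6, 59.9 and 39.0 CPM in KO cells on ND, 1M and 2M and was listed at 0 on 4M, against 32.6, 30.5, 36.6 and 28.7 CPM in Apoe cells. The size of its fall at 4M is therefore not known. Of 9 regulators listed in both libraries 1 (11.1%) was at least 2-fold lower, below the 18.2% of all genes, and none higher. It was Gata6, a transcription factor of the vessel wall, at 79.5 CPM in KO 4M and 247 CPM in Apoe 4M. Mrtfb, a coactivator of Srf, was at 20.9 CPM in KO 4M and 22.3 CPM in Apoe 4M, within the median of all genes. Klf4, a factor known to repress contractile genes, had 462, 606, 584 and 763 CPM in KO cells against 729, 844, 859.6 and 669 CPM in Apoe cells. KO was below Apoe on the 3 other diets and above it at 4M, a departure of 0.76 ± 0.19 (adjusted p = 0.0156), and the cell medians of Klf4 were 514 CPM in KO 4M and 456 CPM in Apoe 4M. Heyl, a Notch target, was listed at 0 in KO 4M and had 164 CPM in Apoe 4M, after 12.4 to 27.5 CPM in KO and 91.2 to 167 CPM in Apoe on the other diets.

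Adhesion, caveolae and vasoactive signalling genes were lower with the contractile list. Of 21 genes of LIM-domain proteins and focal adhesions listed in both libraries, 15 (71.4%) were at least 2-fold lower and 1 (4.76%) higher. Over all genes these shares were 18.2% and 7.00%. The list had a median log2 ratio of -2.19, and the departure was below 0 for 17 of 20 tested. Fblim1, a filamin-binding LIM protein, had 649, 636, 675 and 27.0 CPM in KO cells, against 1193, 1241, 936 and 1115 CPM in Apoe cells, 41.3-fold lower at 4M. Itga8, the integrin alpha 8 chain, was at 32.0 CPM in KO 4M and 962 CPM in Apoe 4M (30.1-fold lower), and Itgb1, the beta chain it pairs with, at 188 and 793 CPM (4.22-fold lower). Csrp2, a LIM protein of smooth muscle, was already low in KO on the other diets (914 to 1008 CPM, against 2554 to 3114 CPM in Apoe) and had 60.0 CPM in KO 4M and 1818 CPM in Apoe 4M. The integrin that was higher was Itga10, a collagen receptor chain of cartilage, with 85.7 CPM in KO 4M and 17.6 CPM in Apoe 4M, while Itga5 (fibronectin receptor) and Pxn (paxillin) were within 0.14 of 0 on the log2 ratio. Among caveolar genes, Cavin1 was 4.56-fold lower and Cav1 1.85-fold lower, and the departure was below 0 for all 6 tested.

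Of 17 channel and receptor genes in the tables, 6 were listed in both libraries, 5 of them at least 2-fold lower and 1 higher. Gucy1a1 and Gucy1b1, the subunits of the nitric oxide receptor guanylate cyclase, were at 17.0 and 6.99 CPM in KO 4M and 148 and 135 CPM in Apoe 4M. Atp2a2, the calcium pump of the sarcoplasmic reticulum, was 3.41-fold lower. Kcnmb1, the beta 1 subunit of the large-conductance potassium channel, was listed at 0 in KO 4M and had 170.0 CPM in Apoe 4M, whereas Kcnma1, the pore-forming subunit of the same channel, had 137 CPM in KO 4M and 58.3 CPM in Apoe 4M. The pair was thus split, and Kcnma1 showed a departure of 1.70 ± 0.21 (adjusted p = 0.0008). Npr1, the receptor for atrial natriuretic peptide, was listed in Apoe 4M alone at 129 CPM.

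Elastic fibre genes and genes that respond to TGF-beta were low in KO on every diet, and several of them were lower still at 4M. Of 16 elastic fibre genes listed in both libraries 13 were at least 2-fold lower and 1 higher, with a median log2 ratio of -2.39 at 4M and of -0.73, -0.50 and -0.61 on ND, 1M and 2M. Eln, elastin, had 714, 574, 368 and 55.0 CPM in KO cells on ND, 1M, 2M and 4M, against 3436, 1899, 2362 and 1717 CPM in Apoe cells. KO lay below Apoe on all 4 diets and KO 4M was the lowest, 31.2-fold below Apoe 4M, with a departure of -2.74 ± 0.34 (adjusted p = 0.000748) that was -0.18 and no longer called with means of the deposited log2 values. The KO 4M value rests on few cells, since a single cell held 436 of the 1006 Eln UMIs, a point noticed after the values were seen. Mfap4, a microfibril-associated protein, had 62.1, 327 and 128 CPM in KO cells on ND, 1M and 2M and was listed at 0 on 4M, against 2168, 1892, 2495 and 1339.8 CPM in Apoe cells. Ltbp1 and Ltbp4, which bind latent TGF-beta, were 14.0-fold and 22.9-fold lower at 4M. Ltbp1 had 1032, 1127 and 1239 CPM in KO and 1197, 1281 and 1672 CPM in Apoe there, and 98.3 CPM in KO 4M against 1379 CPM in Apoe 4M (departure -3.53 ± 0.20, adjusted p = 3.8e-05). Lox and Loxl1, the enzymes that crosslink elastin, were 11.1-fold and 12.4-fold lower at 4M. Fbln5 (fibulin 5, which binds elastin) was 10.1-fold lower at 4M, with log2 ratios of -4.11, -2.69 and -2.38 on ND, 1M and 2M, and its departure of -0.27 ± 0.58 was not called (adjusted p = 0.72). Emilin1, another protein of elastic fibres, was higher instead, with 541 CPM in KO 4M and 197 CPM in Apoe 4M.

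Of 16 TGF-beta-responsive genes listed in both libraries 11 were at least 2-fold lower and 1 higher, and the list median was -1.34 at 4M and -1.33, -0.64 and -0.83 on ND, 1M and 2M. Pmepa1, a feedback inhibitor of the pathway, had 49.8, 84.3, 60.3 and 39.9 CPM in KO cells, against 472, 454, 457 and 631 CPM in Apoe cells. KO was below Apoe on each of the 4 diets, and the 4M ratio was 15.8-fold lower (departure -1.12 ± 0.31, adjusted p = 0.0203, not called with 1 added to the CPM or with means of the deposited log2 values). For some other members the departure was not called. Smad7 and Skil, which restrain SMAD signalling, and Ccn2, connective tissue growth factor, had log2 ratios of -1.13, -0.97 and -1.38 at 4M and departures of -0.46 ± 0.24, 0.44 ± 0.29 and 0.38 ± 0.27 (adjusted p = 0.153, 0.24 and 0.285). Timp1, an inhibitor of metalloproteases, ran the other way, with 66.8, 71.4, 521 and 1443 CPM in KO cells and 37.6, 38.1, 127 and 333 CPM in Apoe cells. Of the pathway itself, Tgfbr1, the partner receptor, had 20.7 CPM in KO 4M and 94.5 CPM in Apoe 4M, Tgfb3 36.9 and 83.6 CPM, and the ligand Tgfb1 155 and 139 CPM. Of 17 receptors, ligands and SMADs listed in both libraries 5 (29.4%) were at least 2-fold lower and 2 (11.8%) higher, beside 18.2% and 7.00% of all genes.

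Cartilage matrix genes had the highest median log2 ratio of the lists. All 18 cartilage matrix genes listed in both libraries were above 0 on the log2 ratio, 17 at least 2-fold, with a median of 3.10, and 11 more were listed in KO 4M alone and none in Apoe 4M alone, of 29 in the tables. The summed list reached 56010 CPM in KO 4M and 7927 CPM in Apoe 4M. Most of these genes were listed at 0 on the shorter diets, so 3 could be tested, and the departure was above 0 for 2 of them.

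Col2a1, the alpha 1 chain of type II collagen, was at 0 by listing in KO cells on ND and 1M and had 579.8 CPM in KO 2M and 11749 CPM in KO 4M, while in Apoe cells it was listed at 0 on ND, 1M and 2M and had 2545 CPM on 4M. KO 4M was thus the highest of the 3 libraries with a value, 4.62-fold above Apoe 4M (log2 2.21, and 3.04 with every cell weighted equally or 3.02 with cells thinned to 1 depth). Cnmd, chondromodulin, an inhibitor of vessel growth in cartilage, had 6.68, 138 and 4281 CPM in KO 1M, 2M and 4M and was listed in 1 Apoe library, Apoe 4M, at 32.4 CPM. At 132-fold (log2 7.04, interval 6.88 to 7.21) it had the highest ratio of the genes with at least 100 CPM in either library. Col9a1, Col9a2 and Col11a1, chains of the minor cartilage collagens, were at 922, 1946 and 1673 CPM in KO 4M and listed at 0 in Apoe 4M, and Col9a3 and Col11a2, further chains of these collagens, were 19.6-fold and 10.7-fold higher. Acan, the large proteoglycan of cartilage, had 817 CPM in KO 4M and 148 CPM in Apoe 4M, and Hapln1, which links it to hyaluronan, had 917 CPM in KO 4M and was listed at 0 in Apoe 4M. Comp, which binds cartilage collagens, was 9.20-fold higher, and Prg4, lubricin, a secreted joint lubricant, 27.4-fold. Snorc and Chadl, matrix proteins of cartilage, were 30.7-fold and 32.5-fold higher. The member with the smallest gap was Prelp, at 596 CPM in KO 4M and 561 CPM in Apoe 4M.

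**Figure D2:**
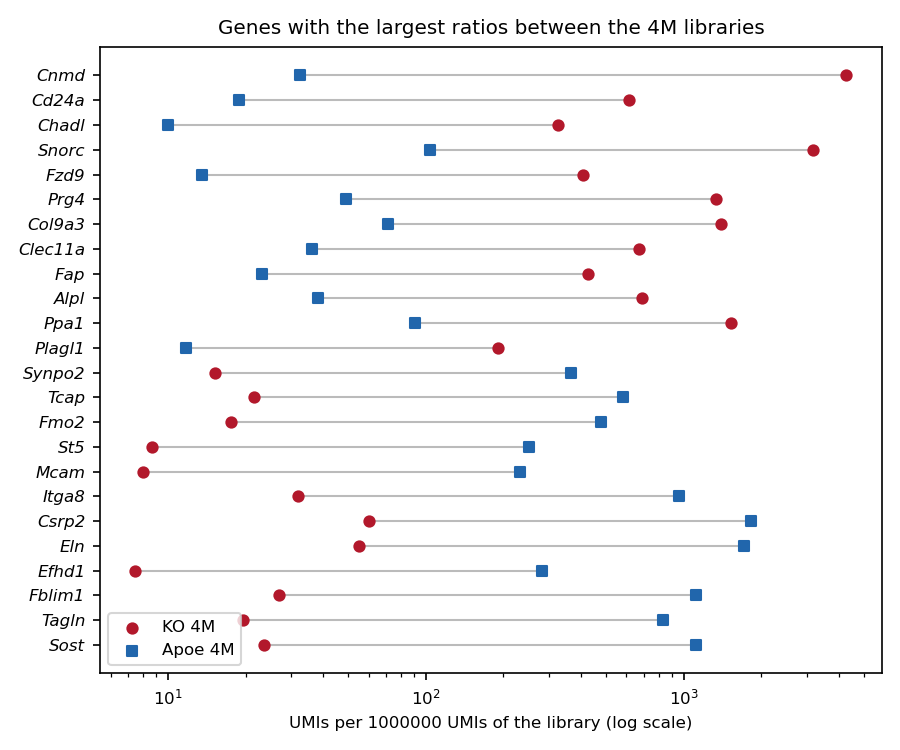
Levels in CPM (log axis) of the 12 genes with the lowest and the 12 with the highest ratio, among genes with at least 100 CPM in the higher 4M library, as circles for KO 4M and squares for Apoe 4M. The gap is widest for Cnmd (4281 CPM in KO 4M, 32.4 CPM in Apoe 4M) at the top and for Sost (23.5 CPM in KO 4M, 1115 CPM in Apoe 4M) at the bottom.

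The cartilage genes were spread over most KO 4M cells and held by few Apoe 4M cells. The summed cartilage list had a median of 50022 CPM per cell in KO 4M, with 10128 and 95129 CPM at the 10th and 90th percentile, and a median of 832 CPM in Apoe 4M, with 295 and 4885 CPM. Of Apoe 4M cells 40 of 1235 (3.24%, interval 2.32 to 4.38) lay at or above the median of KO 4M cells. The cell median of Col2a1 was 5503 CPM in KO 4M and 0 CPM in Apoe 4M, and the 16 KO 4M cells with most Col2a1 held 7.83% of its UMIs, against 67.5% in the 13 such cells of Apoe 4M. The contractile sum exceeded the cartilage sum in 101 of 1577 KO 4M cells (6.40%, interval 5.25 to 7.73) and in 1111 of 1235 Apoe 4M cells (95% interval 88.1% to 91.6%). After every cell was thinned to 2930 UMIs, with no cell left out, 91 KO 4M cells (5.77%) and 1001 Apoe 4M cells (81.1%) had at least 10 Acta2 UMIs, and 946 (60.0%) and 38 (3.08%) had at least 10 Col2a1 UMIs. Both genes reached 10 UMIs in 3 KO 4M cells and in 0 of 1235 Apoe 4M cells, where a count of 0, taken to allow up to 3 cells, limits the share to 0.243%. Without thinning the numbers were 162 and 1075 cells for Acta2, 1334 and 51 for Col2a1 and 88 and 10 for both. Across the cells of a library, which share its depth and its free RNA, the contractile and cartilage sums had Spearman's rho of -0.30 over 1577 KO 4M cells and -0.48 over 1235 Apoe 4M cells. No doublet caller was run, and the 4M libraries share 2 cell barcodes.

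**Figure D3:**
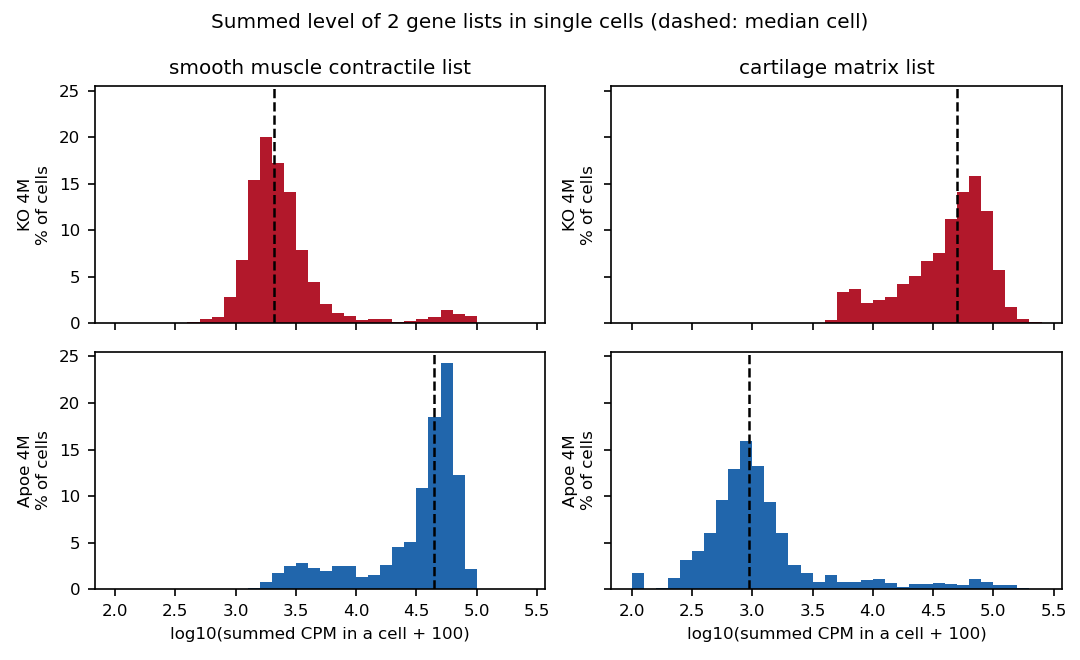
Percent of cells (y axis) by the summed CPM of the contractile list (left) and the cartilage matrix list (right) in each cell, on a log10 scale after adding 100, with KO 4M above Apoe 4M and the median cell dashed. The contractile medians are 1993 CPM in KO 4M and 44357 CPM in Apoe 4M, the cartilage medians 50022 and 832 CPM.

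Transcription factors and receptors of cartilage were higher as well, though not all of them. Of 15 cartilage regulators listed in both libraries 9 were at least 2-fold higher and 1 lower, with a median log2 ratio of 1.49, and the departure was above 0 for 8 and below 0 for 2 of 12 tested. Sox9, the factor required for cartilage formation, had 43.1, 46.3, 80.1 and 626 CPM in KO cells on ND, 1M, 2M and 4M, against 35.8, 33.5, 55.1 and 186 CPM in Apoe cells. It was highest on 4M in both genotypes and 3.36-fold higher in KO 4M than in Apoe 4M, with a departure of 1.32 ± 0.20 (adjusted p = 0.00188). Its cell median was 485 CPM in KO 4M and 0 CPM in Apoe 4M. Sox5 and Sox6, which act with Sox9 on cartilage genes, were 3.65-fold and 5.26-fold higher, whereas Sox8, a relative of Sox9, was 2.80-fold lower. Fgfr3 and Pth1r, receptors that restrain or pace the maturation of cartilage cells, had 164 and 747 CPM in KO 4M and 10.8 and 65.6 CPM in Apoe 4M. Fgfr3 lay between 6.89 and 11.7 CPM in the other KO libraries, and its departure was 4.04 ± 0.30 (adjusted p = 9.68e-05). Frzb, a secreted Wnt antagonist of joint cartilage, had 19.4, 269.5 and 2626 CPM in KO 1M, 2M and 4M, against 11.1, 36.3 and 294 CPM in Apoe 1M, 2M and 4M. Zbtb20, a repressor active in maturing cartilage, was 1.90-fold lower. Of the enzymes that make and sulphate glycosaminoglycans, 6 of 14 listed in both libraries were at least 2-fold higher and 1 lower. Xylt1, which starts the sugar chain on the core protein, was 9.94-fold higher and Ugdh, which makes a sugar precursor, 4.25-fold, while Chsy1, a chondroitin synthase, was 3.03-fold lower.

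Genes of bone matrix and mineralisation were mostly higher in KO 4M. Of 14 listed in both libraries 9 were at least 2-fold higher and 1 lower (median log2 1.58), and 6 more were listed in KO 4M alone. Sparc, osteonectin, a collagen-binding protein of bone and other matrices, had 1569, 1437, 4421 and 33043 CPM in KO cells, against 2929, 2023, 3072 and 6135 CPM in Apoe cells. KO was below Apoe on ND and 1M and above it on 2M and 4M, 5.39-fold at 4M, with a departure of 2.72 ± 0.47 (adjusted p = 0.00322). Spp1 (osteopontin) was listed at 0 in KO ND and 1M and had 1328 CPM in KO 2M and 5299 CPM in KO 4M, against a listing at 0 in Apoe ND, 1M and 2M and 1090.2 CPM in Apoe 4M. Bglap, osteocalcin, a product of mature osteoblasts, had 99.6 CPM in KO 2M and 3031 CPM in KO 4M and was listed at 0 in the other 6 libraries. The 16 KO 4M cells with most Bglap held 31.2% of its UMIs, so its library sum rests in part on few cells. Bglap and Bglap2 are near-identical copies, and reads between them may be split uncertainly. Alpl, the alkaline phosphatase of mineralising cells, was 18.1-fold higher, and Ibsp (bone sialoprotein) had 2387 CPM in KO 4M and 795 CPM in Apoe 4M. Runx2 and Sp7, the factors that drive bone formation, and Col10a1, the collagen of hypertrophic cartilage, were at 46.8, 46.9 and 35.8 CPM in KO 4M and listed at 0 in Apoe 4M. Enpp1, which makes the mineral inhibitor pyrophosphate, was 2.96-fold higher, while Mgp, another inhibitor of calcification, was at 13045 CPM in KO 4M and 12060.0 CPM in Apoe 4M. The other libraries had less Mgp, between 1696 and 4994 CPM in KO and between 3731 and 3982 CPM in Apoe. Sost, sclerostin, a Wnt antagonist, ran against the list with 927, 1287, 999 and 23.5 CPM in KO cells and 1775, 1633, 1194 and 1115 CPM in Apoe cells, the lowest ratio of the genes with at least 100 CPM in either library (47.4-fold lower).

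Small leucine-rich proteoglycans, which coat collagen fibrils, and collagens of the interstitial matrix were mostly higher as well (median log2 1.56 and 0.77). Of 9 small leucine-rich proteoglycans listed in both libraries 5 (55.6%) were at least 2-fold higher and 1 (11.1%) lower, beside 7.00% and 18.2% of all genes. For this list the departure was above 0 for 1 and below 0 for 1 of 5 tested, with a median of -0.03. Dcn (decorin) had 29.1, 265, 2098 and 7820.4 CPM in KO cells, against 36.9, 48.2, 53.0 and 2451 CPM in Apoe cells. The genotypes were already apart on 1M and 2M, and its departure of -0.80 ± 1.68 was not called (adjusted p = 0.719). Fmod (fibromodulin) was 14.2-fold higher and Omd (osteomodulin) 12.9-fold, while Ogn (osteoglycin) was 2.83-fold lower and Bgn (biglycan) had 5081 CPM in KO 4M and 6469.9 CPM in Apoe 4M. Dcn and Lum also stand in the list of fibroblast markers, of which 2 of 6 listed in both libraries were at least 2-fold higher, Dpt was at 28.6 CPM in KO 4M and listed at 0 in Apoe 4M, and Pdgfra was at 17.0 and 18.1 CPM. Their part in these values was not tested. Of 12 interstitial collagens 5 were at least 2-fold higher and none lower, and the departure was above 0 for 7 of 10 tested. Col1a2 had 738, 543, 646 and 3588 CPM in KO cells, against 1348, 1044, 1085 and 2082 CPM in Apoe cells. KO was lower on the 3 shorter diets and 1.72-fold higher at 4M, a departure of 1.64 ± 0.19 (adjusted p = 0.000642). Col6a1, a chain of type VI collagen, was 4.65-fold higher, and Col3a1 was at 837 CPM in KO 4M and 1003 CPM in Apoe 4M. Basement membrane genes went the other way, with 7 of 13 listed in both libraries at least 2-fold lower and 1 higher. Col18a1, which carries endostatin, was 15.5-fold lower, Col4a1 5.04-fold and Lamb2, a laminin chain, 4.23-fold.

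Genes that fold and cut collagen were higher with the collagens. Of 16 collagen processing genes listed in both libraries 7 were at least 2-fold higher and 1 lower (median log2 0.79), and the departure was above 0 for 8 and below 0 for 1 of 15 tested. Serpinh1, the collagen chaperone HSP47, had 886, 703, 898 and 3104 CPM in KO cells, against 963, 972, 958 and 798 CPM in Apoe cells. KO 4M was the highest of the 8 libraries, 3.89-fold above Apoe 4M, with a departure of 2.19 ± 0.22 (adjusted p = 0.000343). P3h1 and P4hb, hydroxylases of collagen proline, were 3.72-fold and 2.14-fold higher, and Pcolce, which enhances removal of the propeptide, was 11.9-fold higher. Adamts2, the protease that removes the other propeptide, was 5.71-fold lower. Proteases split as well, with Mmp2 3.39-fold and Ctsk 5.14-fold higher, Ctsl 6.15-fold and Htra1 4.18-fold lower, and Mmp13, the collagenase of hypertrophic cartilage, at 235 CPM in KO 4M and listed at 0 in Apoe 4M. In the endoplasmic reticulum list 5 of 23 genes were at least 2-fold higher and none lower, and the departure was above 0 for 12 of 23. Xbp1 and Atf4, transcription factors of the unfolded protein response, had 229 and 601 CPM in KO 4M and 99.1 and 371 CPM in Apoe 4M, and Pdia6, a folding enzyme, was 3.12-fold higher. The 20 ribosomal protein genes were all above 0 (median log2 0.56), 3 of them at least 2-fold.

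**Figure D4:**
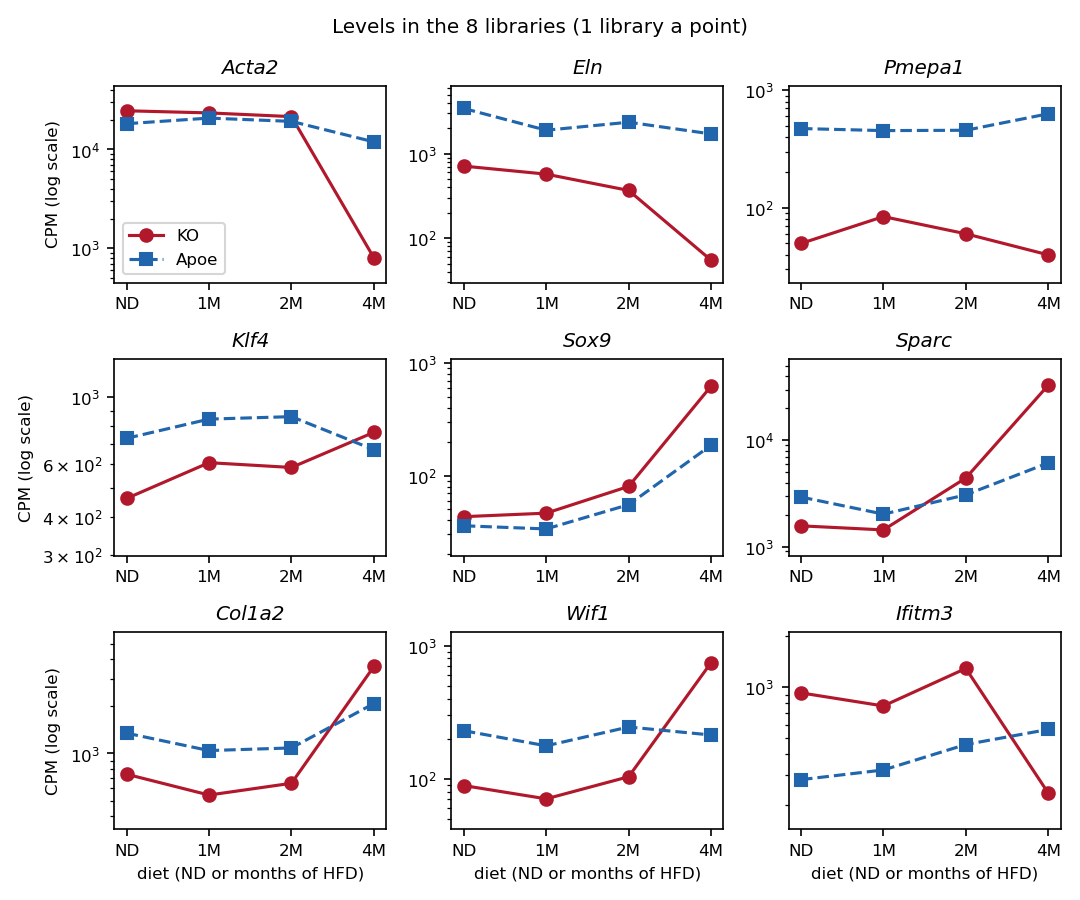
Levels in CPM (log axes) of 9 genes in the 8 libraries by diet, with KO as circles and solid lines and Apoe as squares and dashed lines, 1 library a point. Acta2 is lower in KO at 4M (802 CPM in KO 4M, 11932 CPM in Apoe 4M) and higher in KO on the other diets, Eln and Pmepa1 are lower in KO on every diet, and Klf4, Col1a2, Wif1 and Ifitm3 change the order of the genotypes at 4M.

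Several groups had one order of the genotypes on the shorter diets and the other at 4M. A total of 4494 genes had the same sign of the log2 ratio on ND, 1M and 2M. Of these, 2227 had the opposite sign at 4M, about as many as kept it. The departure was called for 1547 of the 2227, beside 3705 of all 7994 genes tested. An opposite sign at 4M itself enlarges the departure, so these counts do not test for a turn. The 1547 genes split into 1018 that were higher in KO elsewhere and lower at 4M and 529 of the opposite order. Over all genes 2561 departures were called below 0 and 1144 above 0, and the median 4M log2 ratio was -0.25. Of 8 complement genes listed in both libraries 3 (37.5%) were at least 2-fold lower, beside 18.2% of all genes (median log2 -0.82, after 0.72, 0.59 and 0.81 on ND, 1M and 2M). Serping1, the inhibitor of the first complement component, had 219, 272, 338 and 39.6 CPM in KO cells, against 103, 76.4, 130.4 and 113 CPM in Apoe cells. KO stood above every Apoe library on the shorter diets and below every Apoe library at 4M (departure -2.95 ± 0.29, adjusted p = 0.000297). Of 12 interferon-response genes 3 were at least 2-fold lower and 1 (8.33%) higher, shares near the 18.2% and 7.00% of all genes, with a median log2 ratio of -0.63 at 4M and of 0.51, 0.57 and 0.86 on ND, 1M and 2M. Ifitm3, an antiviral membrane protein, had 924, 773, 1289 and 236 CPM in KO cells and 284, 323, 457 and 562 CPM in Apoe cells (departure -2.74 ± 0.23, adjusted p = 0.000147), and the departure was below 0 for 8 of 10 genes of this list, beside 32.0% of all genes. Vcam1, an adhesion molecule for leukocytes, and Cxcl12, a chemokine, had departures of -2.92 ± 0.38 and -2.37 ± 0.25 (adjusted p = 0.000903 and 0.000375). In the list of NF-kB and acute-phase genes 4 of 12 listed in both libraries (33.3%) were at least 2-fold higher and 4 (33.3%) lower (median log2 -0.45). Over all genes 7.00% were higher and 18.2% lower. Among the higher genes of this list Hp (haptoglobin) had 532 CPM in KO 4M and 35.1 CPM in Apoe 4M, and Lcn2 (lipocalin 2) 369 and 131 CPM. The 3 endothelial markers, listed at 0 in KO 4M, were not higher in KO before, with median log2 ratios of -0.34, -0.46 and -0.01 on ND, 1M and 2M. Their part was not tested.

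Among early response factors, 9 of 20 (45.0%) were at least 2-fold lower and none higher, beside 18.2% and 7.00% of all genes. The list was also lower in KO on the other diets (medians -0.56, -0.46 and -0.68, and -0.96 at 4M). The departure was below 0 for 6 of 20 and above 0 for 4, beside 32.0% and 14.3% of all genes. Fos, a subunit of AP-1, had 1822, 2387, 2437 and 609.9 CPM in KO cells, against 3707, 3878, 4401 and 2912 CPM in Apoe cells, and Egr1 was 3.16-fold lower at 4M. The nuclear receptor Nr4a3 went against them with 13.2, 17.5, 14.9 and 95.4 CPM in KO cells and 30.2, 33.5, 41.7 and 26.7 CPM in Apoe cells (departure 3.04 ± 0.25, adjusted p = 0.000129). Its relative Nr4a1 had 693 CPM in KO 4M and 640.4 CPM in Apoe 4M and log2 ratios of -1.42, -1.12 and -1.20 before (departure 1.36 ± 0.21, adjusted p = 0.00179). Wif1, a secreted Wnt inhibitor, turned in the same way, at 88.7, 70.5, 103 and 743 CPM in KO cells and 229, 176, 244 and 213 CPM in Apoe cells (departure 3.12 ± 0.19, adjusted p = 4.63e-05). Of 9 Wnt genes and antagonists listed in both libraries 3 were at least 2-fold higher and 5 lower, and 3 more were listed in KO 4M alone, with Sfrp2 at 7.70 CPM in KO 4M and 113 CPM in Apoe 4M and the receptor Fzd2 4.94-fold lower. Of 5 Notch genes listed in both libraries 3 were at least 2-fold lower and none higher, with Hes1 at 275 CPM in KO 4M and 1198 CPM in Apoe 4M and Hey2 5.06-fold lower, and Notch3 and Hey1 were listed in Apoe 4M alone. For the BMP and Id list the sign of the median depends on the scaling (-0.02 at the UMI total), with Id1 at 429 and 416 CPM and Id4 at 73.3 and 320.0 CPM in KO 4M and Apoe 4M. Of 14 small heat shock proteins and chaperones 9 (64.3%) were at least 2-fold lower and none higher, beside 18.2% and 7.00% of all genes. The lowest ratio was that of Hspb7, a heart and muscle chaperone, at 23.6 CPM in KO 4M and 358 CPM in Apoe 4M.

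Of 20 genes of oxidative phosphorylation 2 (10.0%) were at least 2-fold lower and none higher, below the 18.2% of all genes that were lower, and the median log2 ratio was -0.48. The departure was below 0 for 11 of 20, against 32.0% of all genes, beside list medians of 0.22, 0.16 and 0.18 on ND, 1M and 2M. Transcripts of the mitochondrial genome were at least 2-fold lower in 4 of 10, with mt-Nd3 at 96.1 CPM in KO 4M and 563 CPM in Apoe 4M and mt-Nd1 (log2 -0.97) at 2618 CPM in KO 4M and 5121 CPM in Apoe 4M, beside the lower mitochondrial share of UMIs in KO 4M, whose part was not tested. Of 18 glycolysis genes 4 (22.2%) were at least 2-fold higher and 2 (11.1%) lower, beside 7.00% and 18.2% of all genes. Of 8 ferritin, haem, iron and metallothionein genes listed in both libraries 5 (62.5%) were at least 2-fold higher and none lower, beside 7.00% and 18.2% of all genes. Among the higher ones was Tfrc, the transferrin receptor, at 73.9 CPM in KO 4M and 20.7 CPM in Apoe 4M. The summed list was not higher, at 18240 CPM in KO 4M and 18725 CPM in Apoe 4M, and 2 members were below 0 on the log2 ratio. Lgals3 (galectin 3, a marker of modulated smooth muscle cells and macrophages) had 128, 216, 599 and 2219 CPM in KO cells, against 65.1, 64.3, 157 and 360.0 CPM in Apoe cells, 6.16-fold higher at 4M.

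Further genes with the largest ratios or departures, some of them list members, were named by rule. Efhd1, a mitochondrial calcium-binding protein, had 171, 203, 246 and 7.49 CPM in KO cells and 180.4, 193, 224 and 282 CPM in Apoe cells, with a departure of -5.28 ± 0.20 (adjusted p = 2.62e-05). Ccn3, a matricellular protein, was 22.0-fold lower, Mcam, a cell adhesion molecule of smooth muscle, 29.2-fold, Fmo2, a monooxygenase, 27.4-fold, Tcap, a sarcomere protein, 26.8-fold, and St5 28.9-fold. On the higher side Plagl1, an imprinted zinc finger factor, had 16.0, 13.6, 13.5 and 191 CPM in KO cells and 11.8 CPM in Apoe 4M, below the 18.9 to 21.5 CPM of the other Apoe libraries (departure 4.50 ± 0.23, adjusted p = 2.62e-05). Tubb2a, a beta tubulin, was 5.81-fold higher, Pde8a, a phosphodiesterase of cAMP, 9.09-fold, Alkbh1, a demethylase, 4.52-fold, and Nfatc1, a calcium-regulated factor, 3.78-fold. Cd24a, a surface glycoprotein, was 32.6-fold higher, Fzd9, a Wnt receptor, 30.0-fold, Clec11a, a secreted growth factor of bone, 18.4-fold, Fap, a surface protease, 18.3-fold, and Ppa1, a pyrophosphatase, 16.8-fold. Otor, a secreted protein of cartilage, had 1438 CPM in KO 4M and was listed at 0 in Apoe 4M, whereas Nox4, an oxidase induced by TGF-beta, Dsp (desmoplakin) and 2210407C18Rik had 274, 166 and 167 CPM in Apoe 4M and were listed at 0 in KO 4M.

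**Figure D5:**
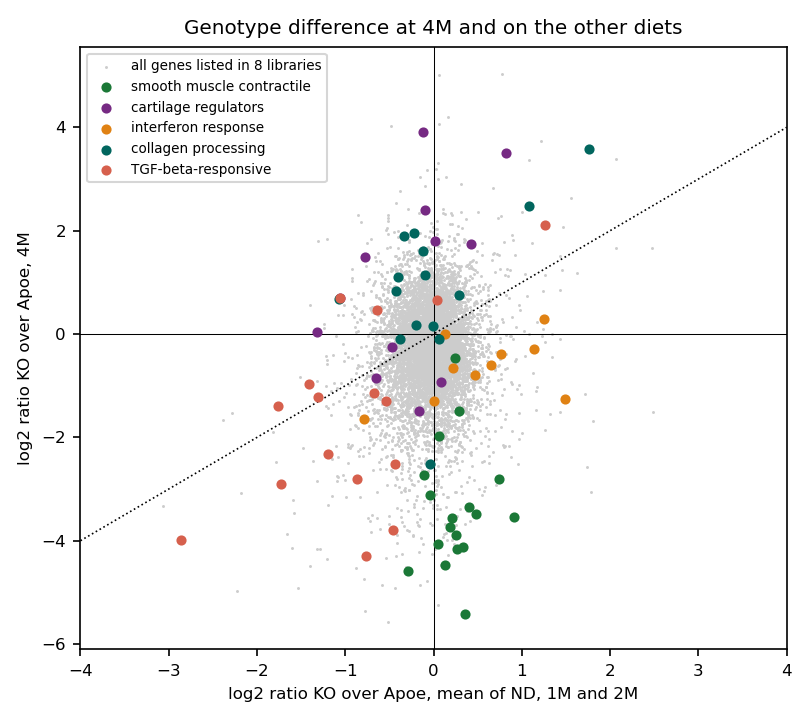
Log2 ratio KO over Apoe at 4M (y axis) against its mean on ND, 1M and 2M (x axis) for the 7994 genes listed in all 8 libraries, with 5 gene lists in colour and the line of equal difference dotted. Contractile genes sit near 0 on the x axis and reach -5.41 on the y axis, TGF-beta-responsive genes are mostly below 0 on both axes, and interferon-response genes lie mostly right of 0 and below it.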

How the data were processed

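Single-cell RNA libraries of sorted smooth muscle cells were deposited as tables of log2 values per cell and gene, 1 table a diet with both genotypes, scaled by the authors, per the file names, with trimmed-mean factors. Tools and build come from the submitters' processing notes, which name the build GRCm38 and the tools UMI-tools, STAR, featureCounts and Subread 1.6.0; filters on cells and the treatment of doublets are not given in the sources used here, and no doublet caller was run. Within a cell, 2 to the power of the value, minus 1, is a whole multiple of its smallest such value above 0, and this held for 100% of 37142070 entries within a tolerance of 0.01. These multiples were taken as UMIs, summed per library and divided by the library total (CPM). If no gene of a cell had a single UMI, its UMIs are understated. All 13056 cells carry a genotype tag that names their library. KO 4M and Apoe 4M share 2 cell barcodes. Gene IDs were named from GENCODE (11438 of 11446 matched).

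With 1 library a side, the 4M pair has no test; genes past 2-fold were counted, and intervals are exact conditional binomial intervals at 95%. For the departure, limma 3.58.1 (R version 4.3.3) was fitted to log2 CPM, with diet, genotype and genotype at 4M as terms, no pseudocount, 2-sided, with Benjamini-Hochberg adjustment over 7994 genes and a threshold of 0.05; the script was tested on simulated data. P-values measure the spread between these libraries only. Thresholds, scaling, pseudocount, cell weights, depth, low genes, cells of other types and libraries left out were varied.

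The members, gene lists and tests were chosen with earlier results of these data known. Genes are named by 4 rules. These are the 12 highest and 12 lowest ratios among genes with at least 100 CPM in the higher library (predicted genes left out, 1 on the highest side and 0 on the lowest), the 6 genes highest in a library and listed at 0 in the other, list members by role, and the 8 smallest p of each sign. From the Apoe time-course table Tgfbr2 was read, and its 10337 other gene columns, values of the same cells, were not used.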

Additional observations from a re-analysis of the deposited data

Results flagged for a closer look

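The genotype difference at 4M departed from that on the other diets, by the limma test of the difference itself, for 1144 genes upward and 2561 downward at an adjusted p under 0.05. Both counts rest on 1 library a side at 4M.

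The 8 upward departures with the smallest p were those of Plagl1 (4.50), Wif1 (3.12), Tubb2a (2.96), Fgfr3 (4.04), Pde8a (3.15), Nr4a3 (3.04), Alkbh1 (2.69) and Nfatc1 (2.24), on the log2 scale. In 6 of them, all but Fgfr3 and Pde8a, KO was below Apoe on ND, 1M and 2M and above it at 4M.

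The 8 downward departures with the smallest p were those of Tagln (-5.77), Efhd1 (-5.28), St5 (-4.70), Myh11 (-4.60), Ccn3 (-4.55), Myl9 (-4.44), Gucy1b1 (-4.43) and Mylk (-4.43). KO 4M was the lowest of the 8 libraries for each of these genes. Tagln, Myh11, Myl9 and Mylk are contractile genes, and Gucy1b1 is a subunit of the nitric oxide receptor.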

How the results depend on the processing

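Of the 8624 shared genes 2172 were past 2-fold, whereas a 1.5-fold threshold gave 4103 (1266 higher, 2837 lower) and a 4-fold threshold 515 (118 and 397). Genes higher in KO 4M numbered 926 with a trimmed-mean factor, 944 with a median-of-ratios factor and 1266 with the authors' scaled values, which left 845 lower. With the authors' values the median log2 ratio was 0.43 for BMP and Id genes, 0.88 for the unfolded protein response, -0.10 for oxidative phosphorylation (-0.23 with median-of-ratios), 0.94 for ribosomal proteins (0.80 with either other factor) and 0.53 for the cell cycle. Called departures numbered 2044 (549 higher, 1495 lower) with a departure of at least 1 required, and 1733 higher and 767 lower with means of the deposited log2 values. They numbered 1103 and 2531 without both ND libraries, 1086 and 2314 without 1M, 1303 and 2839 without 2M, and 809 and 2061 with 1 added to the CPM. The fit compares the genotypes within each diet. No paired analysis was possible because, beyond the diet, no replicate numbers pair the libraries. Levels near that of 1 UMI per cell and listings at 0 limit what is shown of low genes. Among the named genes, 31 alternative values of the departure in 24 genes lost their call and 16 in 11 genes gained one. Of the log2 ratios of named genes 657 alternative values stayed within the counting interval and 636 moved out of it. Those with every cell weighted equally moved by up to 0.84 and by over 1.5-fold in 10 genes, those with cells thinned to 1 depth by up to 0.94 and in 9 genes, and those with the authors' values by up to 0.67 and in 14 genes. The cause was not tested.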

Other observations

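Among 4494 genes whose log2 ratio had the same sign on ND, 1M and 2M, 41 had at least 0.5 in size on each of these diets and a ratio of at least 2-fold the other way at 4M, 32 of them lower and 9 higher in KO 4M. Examples chosen after their values were seen are Itih4, a plasma protease inhibitor, with 2039, 939, 1448 and 49.9 CPM in KO cells and 322, 299, 698 and 416 CPM in Apoe cells, and Nr4a2, a nuclear receptor, with 539 CPM in KO 4M and 109 CPM in Apoe 4M and a departure of 3.17 ± 0.28.

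Of 19 genes of secreted matricellular proteins listed in both libraries 10 (52.6%) were at least 2-fold lower and 3 (15.8%) higher. Over all genes these shares were 18.2% and 7.00%. On the log2 ratio 10 of the 19 were below 0 and 9 above. The summed list was higher in KO 4M, at 56297 CPM against 29817 CPM in Apoe 4M. Postn (periostin) had 52.7 CPM in KO 4M and 729 CPM in Apoe 4M, and Ccn1 464 and 2641 CPM, whereas Thbs1 (thrombospondin 1) had 376 and 158 CPM. Of the insulin-like growth factor axis 4 of 5 genes were at least 2-fold lower, with Igfbp7, a binding protein, at 1730.1 CPM in KO 4M and 4854 CPM in Apoe 4M. Of 12 cholesterol synthesis and uptake genes listed in both libraries 4 (33.3%) were at least 2-fold higher and none lower, beside 7.00% and 18.2% of all genes. Among the higher ones was Cyp51, a demethylase of the pathway, at 38.3 CPM in KO 4M and 13.1 CPM in Apoe 4M. Cdkn2a, a brake on the cell cycle, was at 35.2 CPM in KO 4M and listed at 0 in Apoe 4M.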
